A study of Mus musculus with 6 samples.

Results

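The genes described here are 10 mouse genes for mucins and epithelial surface antigens: Muc1, Muc4, Muc15, Muc20, Epcam, Cd24a, Cd44, Cd9, Cd99 and Cd99l2. They are 10 of the 12393 genes that had a probe set with a single gene symbol, and they were measured by 18 probe sets. The group was chosen from the readout, because Muc1 and Cd99 separated the 2 crosses of the study, so the members' differences between the crosses are given as a description, with no p-value of a member. Limma's adjusted p is printed for related genes only. The samples were mammary tumours of adult female F1 mice, 3 from AKR/J x PyMT crosses (AKR F1 tumours) and 3 from DBA/2J x PyMT crosses (DBA F1 tumours). The PyMT parent, shared by all 6 samples, carried the polyomavirus middle T antigen, an oncogene that drives mammary tumours in mice. The labels name neither the promoter of the transgene nor the strain of the PyMT parent, and they do not state whether the samples are from different animals, so p-values below measure the spread between samples, which may be technical. Differences are AKR minus DBA on the log2 scale, so 1 unit is a doubling and a negative value is higher in DBA F1 tumours.

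Mucins are proteins with long stretches of serine and threonine that carry dense O-linked sugars. Membrane mucins such as Muc1 sit on the apical face of secretory epithelia, where they lubricate and shield the cell, and in carcinoma cells they are often spread over the whole surface. Epcam and the small sialoglycoprotein Cd24a mark mammary epithelial cells. Cd44, the hyaluronan receptor, is used as a marker of basal and mesenchymal-like cells, and Cd9, Cd99 and Cd99l2 take part in cell adhesion and in the passage of leukocytes through vessel walls.

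All 10 genes were found in RefSeq's gene table (GRCm38.p6), which places them on chromosomes 2 (Cd44 and Muc15), 3 (Muc1), 4 (Cd99), 6 (Cd9), 10 (Cd24a), 16 (Muc4 and Muc20), 17 (Epcam) and X (Cd99l2). Muc4 and Muc20 are neighbours whose annotated spans overlap. The RefSeq promoter table matched 7 of the 10 genes. The 250 bases before the annotated start are shown for Muc1, which was higher in DBA F1 tumours, for the neighbours Muc4 and Muc20, which had higher means in AKR F1 tumours, and for Epcam, whose crosses overlapped. The windows are those of GRCm38.p6, at chr3:89228806-89229055, plus strand for Muc1, chr16:32735636-32735885, plus strand for Muc4, chr16:32797436-32797685, minus strand for Muc20 and chr17:87635729-87635978, plus strand for Epcam. Each is printed 5′ to 3′, and capitals mark matches, on either strand, to 5 short motifs. The TATA box was searched as TATAAA. The GC box was searched as GGGCGG. The E-box was searched as CACCTG. The STAT motif was searched as TTCNNNGAA. The core of the interferon-stimulated element was searched as GAAANNGAAA.
Muc1: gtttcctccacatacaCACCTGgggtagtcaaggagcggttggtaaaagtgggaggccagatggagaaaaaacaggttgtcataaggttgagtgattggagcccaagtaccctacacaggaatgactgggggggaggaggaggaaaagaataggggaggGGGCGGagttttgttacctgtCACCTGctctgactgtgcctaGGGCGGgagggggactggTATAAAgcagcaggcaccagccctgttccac
Muc4: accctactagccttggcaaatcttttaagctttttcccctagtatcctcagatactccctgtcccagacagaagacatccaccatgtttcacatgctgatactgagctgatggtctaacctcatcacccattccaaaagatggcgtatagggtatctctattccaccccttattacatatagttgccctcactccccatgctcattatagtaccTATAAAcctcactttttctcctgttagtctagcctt
Muc20: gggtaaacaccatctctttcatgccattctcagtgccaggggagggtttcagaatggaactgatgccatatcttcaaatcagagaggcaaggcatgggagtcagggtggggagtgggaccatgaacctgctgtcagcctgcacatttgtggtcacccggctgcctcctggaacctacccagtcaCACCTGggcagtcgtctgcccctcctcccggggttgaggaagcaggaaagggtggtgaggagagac
Epcam: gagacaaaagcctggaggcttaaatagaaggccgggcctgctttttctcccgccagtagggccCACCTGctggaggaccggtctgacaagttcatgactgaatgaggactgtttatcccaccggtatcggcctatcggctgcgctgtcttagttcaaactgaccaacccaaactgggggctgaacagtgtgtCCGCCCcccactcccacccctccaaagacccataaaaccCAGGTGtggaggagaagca

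The Muc1 window held a TATA box 31 bases before the start, GC boxes 91 and 49 bases before it and E-boxes 234 and 70 bases before it. A TATA box stood 36 bases before the start of Muc4, an E-box 66 bases before that of Muc20, and in Epcam a GC box stood at 58 bases and E-boxes at 187 and 19 bases before the start. No match to the STAT or the interferon-stimulated motif was found in the 7 member windows, which says only that these letters are absent there. Over all 32851 windows of this length the TATA box was found in 12.4%, the GC box in 32.7%, the E-box in 17.2%, the STAT motif in 7.02% and the interferon-stimulated core in 2.98%. No matches of different motifs overlapped in these windows. GC content was 54.8% in the Muc1 window, 43.6% in that of Muc4, 57.2% in that of Muc20 and 56.4% in that of Epcam, against a median of 52.4% over all windows.

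The values are log2 levels of probe sets from 1 Affymetrix array per sample, with medians between 7.52 and 7.57 per array. Values are compared only between arrays for the same probe set, since probe sets differ in how strongly they bind. Of 14 luminal epithelial markers 11 lay above the array median on all 6 arrays, Spdef and Foxa1 on some, and Esr1 on none. Krt8 lay between 12.13 and 12.75 and Elf5 between 11.75 and 12.76. AKR replicate 2 stood apart: its correlation with the other arrays over all probe sets was between 0.915 and 0.965, and its salivary gland marker list averaged 10.92, against 6.58 to 8.13 on the other 5 arrays. DBA replicate 1 had the highest skeletal muscle list (11.39, against 6.28 to 9.56 on the others) and the highest adipocyte list (9.09, against 6.58 to 7.77), and the largest difference between 3′ and 5′ control probe sets of Gapdh (1.20, against 0.05 to 0.75). Member differences that these arrays moved are given with and without them.

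Muc1 and Cd99 lay on opposite sides. By limma, 1 of the 18 member probe sets passed an adjusted p of 0.05, a Cd99 probe set higher in AKR F1 tumours. Of all 22626 probe sets 0.0972% passed, 0.0354% with the higher level in AKR F1 tumours and 0.0619% with the higher level in DBA F1 tumours. Since the group was chosen on this comparison nothing is read from that count. The values of the crosses did not overlap in 6 of the 18 member probe sets (33.3%), beside 39.2% of all probe sets. These were the 3 of Cd99 and that of Muc4, higher in AKR F1 tumours (23.4% of all probe sets), and those of Muc1 and Cd9, higher in DBA F1 tumours (15.8% of all). The median difference over the 18 was 0.09, and over all probe sets it was 0.05. A difference of more than 1 log2 unit was found for 4 member probe sets, those of Muc1 and Cd99, and for 3.47% of all probe sets.

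**Figure D1:**
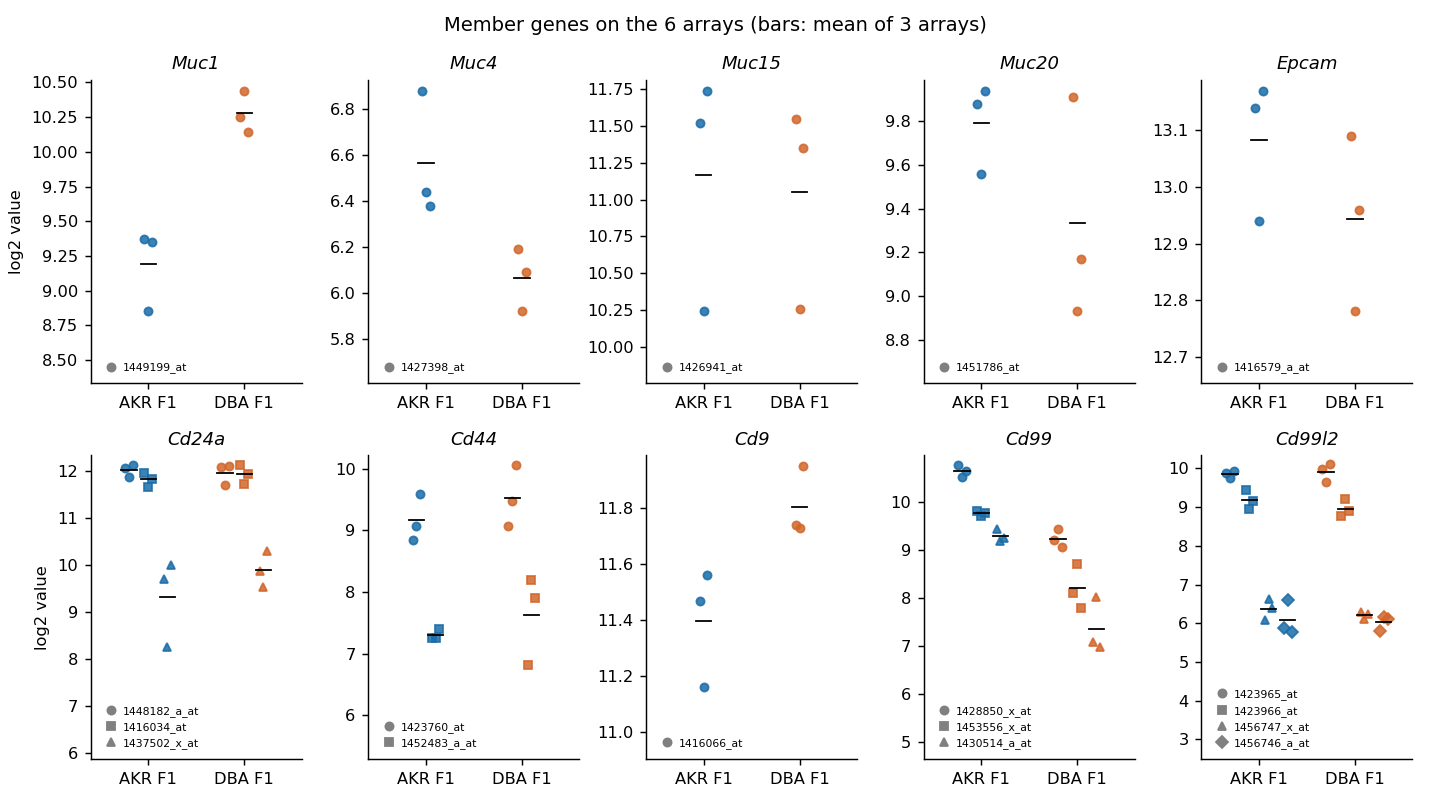
Log2 value of each member gene (vertical axis, a scale of its own per gene) on the 3 arrays of AKR F1 and the 3 of DBA F1 tumours, with a symbol shape per probe set and bars at the means. Muc1 lies between 8.85 and 9.37 in AKR and between 10.14 and 10.44 in DBA F1 tumours, and all 3 Cd99 probe sets lie higher in AKR F1 tumours.

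Muc1, a membrane mucin that is cleaved into an extracellular part and a signalling tail, read 9.37, 8.85 and 9.35 in AKR F1 tumours, against 10.25, 10.44 and 10.14 in DBA F1 tumours. The highest AKR value lay 0.77 below the lowest DBA value, a gap wider than the spread of 0.52 within AKR or 0.30 within DBA F1 tumours. Muc1 averaged 9.19 ± 0.30 in AKR F1 tumours against 10.28 ± 0.15 in DBA F1 tumours (± SD, n = 3 each). The difference was -1.09 (SE 0.18), or 2.13-fold higher in DBA. When all probe sets are cut into 10 bins by mean level, the bin that holds Muc1 had a median of -0.21, which leaves -0.88 for Muc1 relative to its bin. Muc1 was measured by a single probe set, so no second probe set of the gene could be set beside it. If the strains differ in sequence where the probes bind, that cannot be told apart from a difference in RNA level.

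AKR replicate 2 read lowest for Muc1, and the array with the highest Muc1 value, DBA replicate 2, also had the highest mean of the interferon response list. All 22 measured genes of that list had lower means in AKR F1 tumours, and 2 of them, Ifi27l2a and Oas1a, passed limma. On the arrays this list averaged 7.77, 7.62 and 7.78 in AKR F1 tumours, against 8.89, 10.08 and 9.49 in DBA F1 tumours. Within the DBA F1 tumours the order of replicates 1 and 3 differed between Muc1 and the list. The part of the interferon response in the Muc1 difference was not tested. Without AKR replicate 2 and DBA replicate 1 together the Muc1 difference was -0.93, and over the alternatives it ran from -1.18 to -0.87. The value of -0.87 came with array weights, whose calculation did not reach its tolerance. After quantile normalization the difference was -0.89.

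Muc4 and Muc20 had higher means in AKR F1 tumours, and the sign of Muc15 depended on the arrays kept. Muc4, a large membrane mucin that in the rat binds the receptor ErbB2, read 6.88, 6.44 and 6.38 in AKR F1 tumours, against 6.19, 5.92 and 6.09 in DBA F1 tumours. The crosses did not overlap, with a gap of 0.18, but the Muc4 values lay below the array median on all 6 arrays, where a level can be near background. The difference was 0.50 (SE 0.17), and the median of its bin by mean level was 0.23.

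Muc20, a membrane mucin linked to the receptor Met in human cells, read 9.88, 9.56 and 9.94 in AKR F1 tumours, against 9.91, 8.93 and 9.17 in DBA F1 tumours. DBA replicate 1 read like the AKR arrays, so the crosses overlapped, while DBA replicates 2 and 3 lay below all 3 AKR values. The difference was 0.45 (SE 0.26), and over the alternatives it ran from 0.25 without DBA replicate 2 to 0.86 without AKR replicate 2 and DBA replicate 1. DBA replicate 1 was also the array with the most muscle and fat transcript, and the part of that tissue in its Muc20 value was not tested.

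Muc15, a membrane mucin known from the milk fat globule of cattle, read 11.52, 10.24 and 11.74 in AKR F1 tumours, against 11.55, 10.26 and 11.35 in DBA F1 tumours. Replicate 2 of each cross lay more than 1 unit below the others, and the crosses overlapped almost wholly, with a difference of 0.12 (SE 0.48). The same 2 arrays read lowest in their cross for the fibroblast and stroma list, at 9.04 against 10.19 and 10.21 in AKR F1 tumours and at 8.51 against 10.51 and 10.14 in DBA F1 tumours. They also read lowest for the luminal list, at 9.96 against 10.13 and 10.21 in AKR F1 tumours and at 9.78 against 10.08 and 10.13 in DBA F1 tumours. The macrophage, endothelial and adipocyte lists were lowest of their cross on these 2 arrays as well. Among all probe sets brighter than the median, AKR replicate 2 was the lowest AKR array for 68.1% and DBA replicate 2 the lowest DBA array for 42.1%. In bulk tumour RNA, fewer cells of a type cannot be told apart from less RNA per cell, and the part of cell makeup in the Muc15 values was not tested. The sign of the Muc15 difference turned without AKR replicate 1 (-0.06), AKR replicate 3 (-0.17) or DBA replicate 2 (-0.28). It was 0.83 with both AKR replicate 2 and DBA replicate 1 left out.

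Epcam, a homophilic adhesion protein of epithelial cells, read 13.14, 12.94 and 13.17 in AKR F1 tumours, against 13.09, 12.78 and 12.96 in DBA F1 tumours. Its 6 values spanned 0.39, less than those of any other member probe set, and the difference was 0.14 (SE 0.14), within the spread of each cross, with a range from 0.05 to 0.33 over the alternatives. Without AKR replicate 2 and DBA replicate 1 the Epcam difference was 0.28. Cd24a, a small lipid-anchored sialoglycoprotein used to sort mouse mammary epithelium, was measured by 3 probe sets that did not go together. The brightest of them, 1448182_a_at, differed by 0.06 (SE 0.16) and 1416034_at by -0.12 (SE 0.15), with values between 11.66 and 12.13 on all arrays for both. After quantile normalization the sign of 1416034_at turned, to 0.08, and without AKR replicate 2 and DBA replicate 1 it turned to 0.06. The third, 1437502_x_at, read 9.70, 8.25 and 9.99 in AKR F1 tumours, against 9.87, 9.52 and 10.29 in DBA F1 tumours. The low value was that of AKR replicate 2: the difference of -0.58 (SE 0.46) was -0.05 without that array. The suffix _x_at marks a probe set with probes that can match other sequences as well.

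Cd44, which binds hyaluronan and whose variable exons are spliced differently in epithelial and mesenchymal cells, was measured by 2 probe sets. Probe set 1423760_at read 8.84, 9.07 and 9.58 in AKR F1 tumours, against 9.07, 9.47 and 10.05 in DBA F1 tumours, with overlap between the crosses and a difference of -0.37 (SE 0.29). Single arrays moved it, to -0.11 without DBA replicate 3, -0.20 without AKR replicate 1, -0.58 without AKR replicate 3 and -0.60 without DBA replicate 1. Probe set 1452483_a_at read 7.26, 7.25 and 7.40 in AKR F1 tumours, against 6.81, 8.19 and 7.90 in DBA F1 tumours. DBA replicates 2 and 3 lay above the AKR arrays and DBA replicate 1 lay below them, and the difference was -0.33 (SE 0.34). This probe set lay above the array median only on DBA replicates 2 and 3. Leaving out single DBA arrays gave -0.74 (replicate 1), -0.05 (replicate 2) and -0.20 (replicate 3). The basal and myoepithelial list averaged 8.06, 8.36 and 7.89 in AKR F1 tumours, against 7.99, 8.94 and 9.17 in DBA F1 tumours, so it too was lowest of its cross on DBA replicate 1. Genes of this list did not go together on the 3 DBA arrays. Acta2 read 10.37, 13.26 and 12.13 there, whereas Krt5 read 8.91, 7.43 and 9.62. The part of basal and myoepithelial cells in the Cd44 values was not tested.

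Cd9, a tetraspanin that organises integrins and other surface proteins, read 11.47, 11.16 and 11.56 in AKR F1 tumours, against 11.74, 11.73 and 11.95 in DBA F1 tumours. The crosses did not overlap, by a gap of 0.16, and the difference was -0.41 (SE 0.15), or 1.33-fold higher in DBA F1 tumours. Bright probe sets as a whole leaned the same way, since the brightest of the 10 bins had a median difference of -0.21, and after quantile normalization the Cd9 difference was -0.17.

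**Figure D2:**
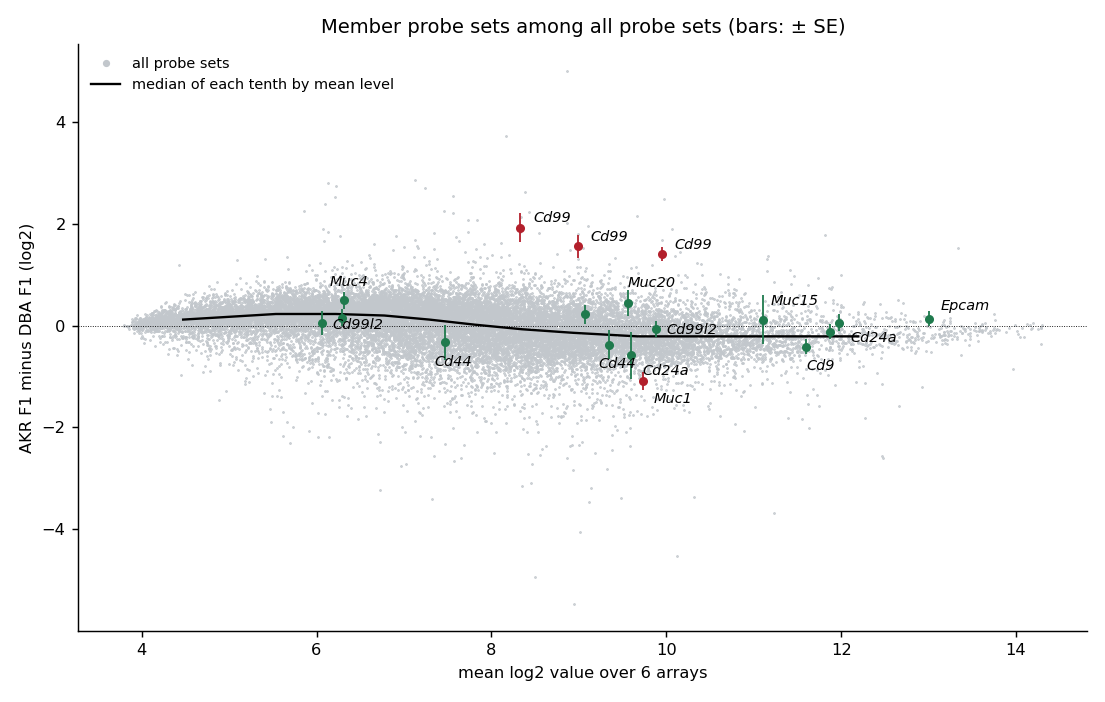
AKR minus DBA difference (vertical axis, log2) against mean log2 value over the 6 arrays (horizontal axis) for all 22626 probe sets in grey and the 18 member probe sets in red (Muc1 and Cd99) and green (the others), with bars of ± SE. The line is the median of each of 10 bins by mean level, from 0.23 among dim to -0.21 among bright probe sets, and the Cd99 probe sets lie above it while Muc1 lies below.

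Cd99, a small O-glycosylated surface protein that in mice is bound by paired immunoglobulin-like receptors, was the member with the largest difference between the crosses. Its brightest probe set, 1428850_x_at, read 10.78, 10.53 and 10.65 in AKR F1 tumours, against 9.22, 9.44 and 9.06 in DBA F1 tumours. The lowest AKR value lay 1.09 above the highest DBA value, while the values within a cross spanned 0.25 in AKR and 0.38 in DBA F1 tumours. This probe set averaged 10.65 ± 0.12 in AKR F1 tumours against 9.24 ± 0.19 in DBA F1 tumours (± SD, n = 3 each). The difference was 1.41 (SE 0.14), or 2.66-fold higher in AKR. Bright probe sets as a whole leaned the other way, with a median of -0.21 in the same bin by level.

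The other Cd99 probe sets went the same way with larger differences. Probe set 1453556_x_at read 9.82, 9.70 and 9.78 in AKR F1 tumours, against 8.11, 8.71 and 7.79 in DBA F1 tumours, a difference of 1.56 (SE 0.23). Probe set 1430514_a_at read 9.45, 9.18 and 9.25 in AKR F1 tumours, against 7.09, 8.02 and 6.98 in DBA F1 tumours, a difference of 1.93 (SE 0.28), or 3.81-fold. Its values on DBA replicates 1 and 3 lay below the array median, where a level can be near background. In all 3 probe sets DBA replicate 2 read highest of its cross and DBA replicate 3 lowest, so the spread within the DBA F1 tumours was also shared. The platform annotation ties 1453556_x_at and 1430514_a_at to the same transcript sequence, so they are not independent measurements. Probe sets 1428850_x_at and 1453556_x_at also carry the suffix _x_at, so their probes can match other sequences as well. As for Muc1, a strain difference in the probed sequence and one in RNA level cannot be told apart.

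Over the alternatives the Cd99 differences ran from 1.32 to 1.61 at 1428850_x_at, from 1.36 to 1.82 at 1453556_x_at and from 1.74 to 2.25 at 1430514_a_at. Without AKR replicate 2 and DBA replicate 1 they were 1.46, 1.55 and 1.85. The count of member probe sets that passed limma changed with the arrays. It was 0 when any single AKR array or DBA replicate 3 was left out. It was 1 when DBA replicate 1 was left out and 3 when DBA replicate 2 was, all of them probe sets of Cd99. Of all probe sets 1.16% passed without DBA replicate 1 and 0.115% without DBA replicate 2. That share was 0.00442% without AKR replicate 1 or DBA replicate 3, 0.00884% without AKR replicate 2 and 0.0486% without AKR replicate 3. Since the group was chosen on this comparison, nothing is read from these counts.

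Cd99l2, the paralogue of Cd99, did not show its pattern. Probe set 1423965_at read 9.88, 9.75 and 9.93 in AKR F1 tumours, against 9.99, 9.64 and 10.12 in DBA F1 tumours, a difference of -0.06 (SE 0.16) that was 0.16 after quantile normalization. Probe set 1423966_at read 9.44, 8.95 and 9.15 in AKR F1 tumours, against 8.78, 9.21 and 8.90 in DBA F1 tumours, a difference of 0.22 (SE 0.18). A further pair, 1456747_x_at and 1456746_a_at, lay below the array median on every array and differed by 0.16 (SE 0.16) and 0.05 (SE 0.24). The sign of 1456746_a_at depended on the arrays kept. Its difference was -0.2 once AKR replicate 2 was dropped and -0.06 once DBA replicate 1 was. With neither of these arrays kept, the 1456746_a_at difference was -0.32. The crosses overlapped in all 4 probe sets of Cd99l2.

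**Figure D3:**
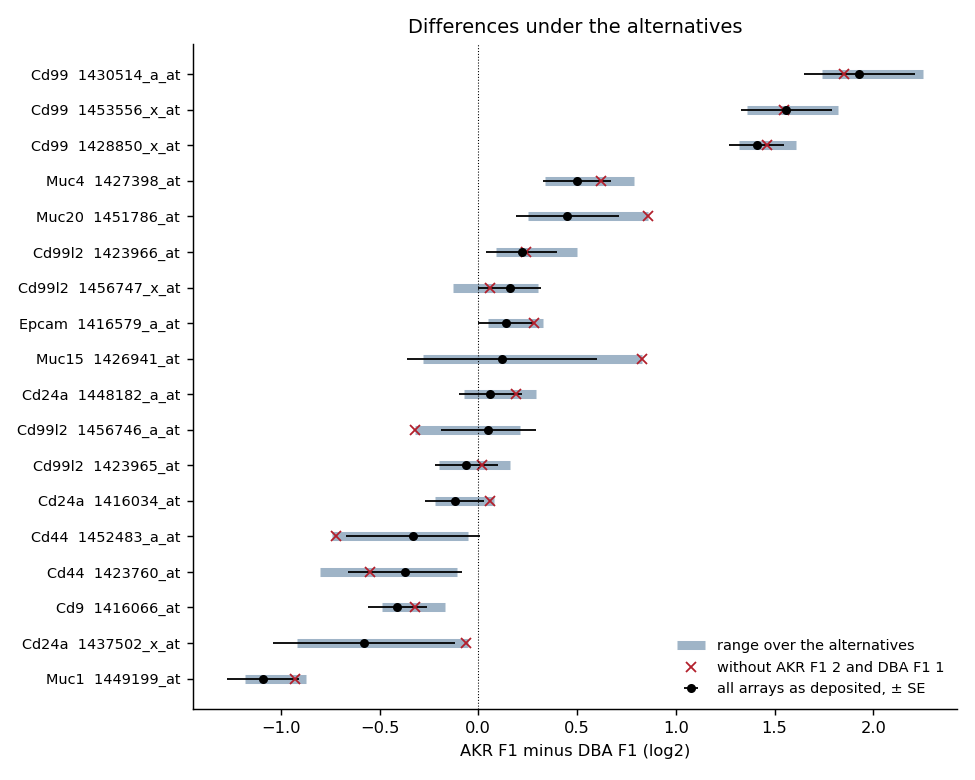
AKR minus DBA difference (horizontal axis, log2) of each member probe set with all arrays as deposited (black, ± SE), its range over the alternatives (blue bar) and its value without AKR replicate 2 and DBA replicate 1 (red cross). The bars of Muc1 and Cd99 stay on their own side of 0, whereas those of Muc15 and of several Cd24a and Cd99l2 probe sets cross it. The ranges include the array weights, whose calculation did not reach its tolerance.

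Within a cross, the arrays on which members read lowest were counted. AKR replicate 2 was the lowest AKR array for 14 of the 18 member probe sets (77.8%), beside 48.7% of all probe sets. DBA replicate 2 was the lowest DBA array for 10 of the 18 (55.6%), beside 34.0% of all. These shares are over all levels, while AKR replicate 2 had the narrowest spread of values (SD 1.76, against 1.90 to 2.02 on the other arrays) and 14 of the 18 member probe sets were brighter than the median. Among those 14 it was lowest of its cross for 13, beside 68.1% of all brighter probe sets, and among the 4 dimmer ones for 1, beside 29.4%. DBA replicate 2 was lowest for 8 of the 14, beside 42.1% of all brighter probe sets. It was the highest DBA array for 7 of the 18, beside 36.9% of all probe sets, those of Muc1 and Cd99, 1452483_a_at of Cd44, and 1423966_at and 1456746_a_at of Cd99l2.

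**Figure D4:**
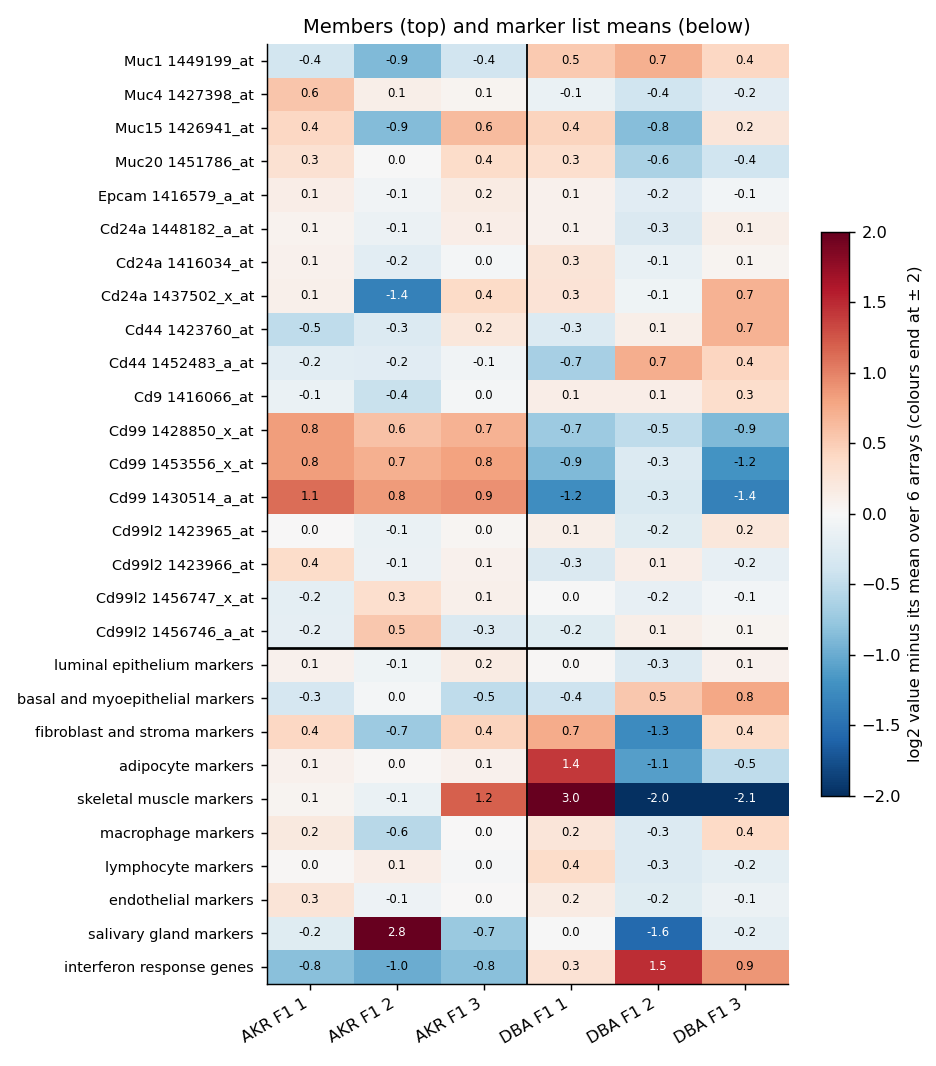
Log2 value minus its mean over the 6 arrays for the 18 member probe sets (upper block) and for the mean of 10 marker lists (lower block), with arrays as columns and AKR F1 left of DBA F1 tumours. Muc1 and Cd99 change at the line between the crosses, Muc15 is low on replicate 2 of both, and the marker lists of muscle and salivary gland stand out on DBA replicate 1 and AKR replicate 2.

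The probe sets whose pattern over the 6 arrays was most like that of Muc1, among 10407 brighter than the median, were those of Xist (Pearson r = 0.998), Arih1 (r = 0.998) and Fis1 (r = 0.996). Those most like the brightest Cd99 probe set, among 10405, were of Brat1 (r = 0.996), Mepce (r = 0.994) and Impdh1 (r = 0.994). The likeness rests largely on the step between the crosses, which all 6 share, and their differences were smaller than those of Muc1 and Cd99. These were -0.46 for Xist, -0.72 for Arih1 and -0.41 for Fis1, and 0.63 for Brat1, 0.51 for Mepce and 0.63 for Impdh1. They are given as a description over 6 arrays.

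Genes that work with the members were gathered in 7 lists, each gene represented by its brightest probe set, with 121 distinct genes measured. None of the 121 passed limma at an adjusted p of 0.05, beside 0.0565% of all 12393 genes, and the smallest adjusted p among them was 0.0609. At an unadjusted p under 0.05 there were 33 (27.3%), of which 14 lay higher in AKR F1 tumours and 19 lay lower there, beside 25.2% of all genes. The median difference of the 121 was -0.01, and that of all genes was 0.05.

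The enzymes of mucin-type O-glycosylation, which build the sugars of Muc1 and Cd99, had 26 measured members, 12 with a higher mean in AKR and 14 with a higher mean in DBA F1 tumours (median -0.07, which was 0.05 with a mean per gene). C1galt1, the enzyme that adds galactose to form the core 1 sugar, read 7.81, 7.65 and 7.72 in AKR F1 tumours, against 8.61, 8.57 and 8.56 in DBA F1 tumours. Its crosses did not overlap, and the difference was -0.85 (SE 0.11, adjusted p = 0.0609 by limma), whereas a further C1galt1 probe set differed by -0.21. It passed when the test kept only probe sets brighter than the median (-0.85), and when AKR replicate 2 and DBA replicate 1 were both left out (-0.80). St6galnac2, which adds sialic acid to these sugars, read 7.94, 7.68 and 8.12 in AKR F1 tumours, against 8.60, 9.11 and 9.12 in DBA F1 tumours, a difference of -1.03 (SE 0.19, adjusted p = 0.0837 by limma), and its dimmer probe set differed by 0.37. It passed without DBA replicate 1, at a difference of -1.20. Galnt16, of the family that starts O-glycosylation, differed by 0.38 (adjusted p = 0.141 by limma).

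The list of other mucins and mucin-like proteins had 10 measured members and a median difference of 0.22, with 7 members higher on average in AKR F1 tumours and 3 lower. Among probe sets brighter than the median the list's median was -0.17. Those with the smallest p were the intestinal membrane mucin Muc13 (0.51), the oviduct glycoprotein Ovgp1 (0.59) and the endothelial sialomucin Emcn (-0.37), with limma adjusted p of 0.143, 0.188 and 0.188. Ovgp1 and Muc13 read highest on AKR replicate 2, and without it they differed by 0.31 and 0.35. AKR replicate 2 had the most salivary gland transcript and also the narrowest spread of values. Both probe sets were dim, averaging 7.14 and 6.71, below the median level of 7.55. Their bins by mean level had median differences of 0.12 and 0.20. A further Muc13 probe set, averaging 4.08, differed by 0.17. The part of salivary tissue or of the array's narrow spread in these values was not tested.

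**Figure D5:**
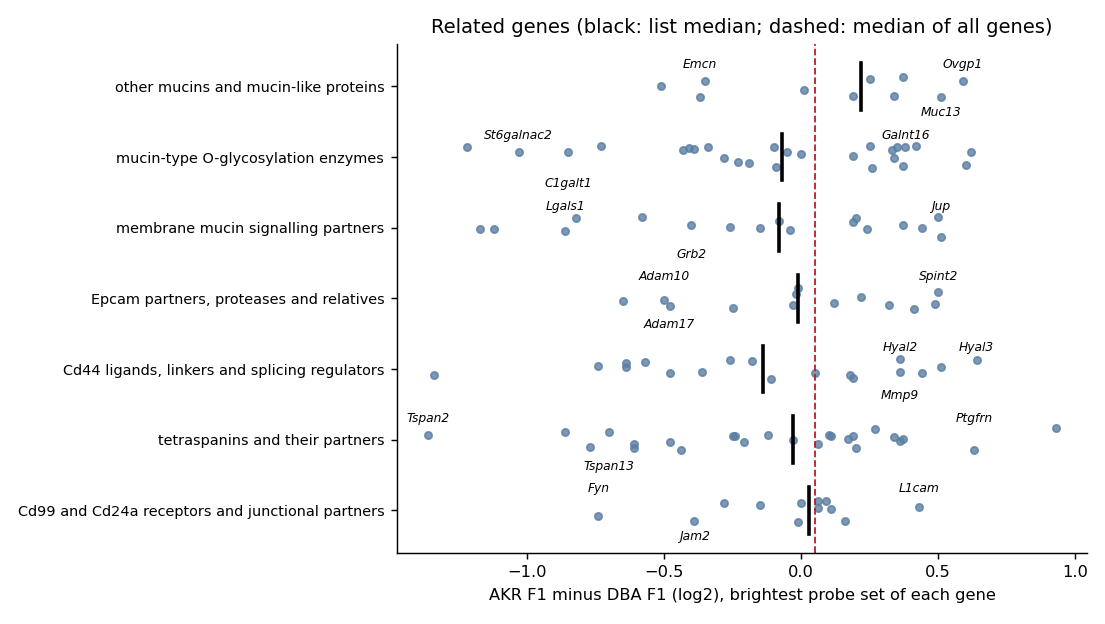
AKR minus DBA difference (horizontal axis, log2) of each measured gene in 7 lists of related genes, at its brightest probe set, with black bars at list medians and a dashed line at the median of all genes (0.05). List medians lie between -0.14 and 0.22, and no gene shown passed limma.

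Of 17 signalling partners of membrane mucins, 7 had a higher mean in AKR and 10 in DBA F1 tumours (median -0.08). Lgals1, a galectin that binds their sugars, differed by -0.86 (adjusted p = 0.108 by limma). The junction protein gene Jup differed by 0.51 (limma adjusted p = 0.116) and the adaptor gene Grb2 by -0.40 (limma adjusted p = 0.129). A further Grb2 probe set differed by 0.16. Among 13 partners, proteases and relatives of Epcam (median -0.01, which was 0.23 after quantile normalization), the sheddase genes Adam17 and Adam10 differed by -0.48 and -0.50, and Spint2, an inhibitor of the protease that cleaves Epcam, by 0.50, with 0.14 at its other probe set. Their limma adjusted p were 0.118, 0.155 and 0.178. All probe sets of Adam10 and Adam17 lay lower in AKR F1 tumours, with differences of -0.50, -0.74 and -1.06 for Adam10 and of -0.48, -0.25 and -0.54 for Adam17. Bright probe sets as a whole leaned the same way. After quantile normalization the brightest probe set of each of these genes differed by -0.26.

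Among 18 ligands, linkers and splicing regulators of Cd44 (median -0.14, which was 0.08 after quantile normalization), the hyaluronidase genes Hyal3 (0.64) and Hyal2 (0.36) and the protease gene Mmp9 (0.36) had the smallest p, with limma adjusted p of 0.133, 0.149 and 0.159. Hyal3 read 6.99, 7.52 and 6.78 in AKR F1 tumours, against 6.46, 6.47 and 6.45 in DBA F1 tumours, highest on AKR replicate 2, without which the difference was 0.43. Among 25 tetraspanins and partners (median -0.03, which was 0.19 after quantile normalization), Tspan13 differed by -0.70, the tetraspanin partner gene Ptgfrn by 0.63 and Tspan2 by -1.36, with limma adjusted p of 0.0934, 0.124 and 0.148. Tspan2 read 9.18, 8.48 and 8.89 in AKR F1 tumours, against 9.17, 11.04 and 10.44 in DBA F1 tumours. DBA replicate 1 lay with the AKR arrays, and Tspan2 passed without that array at a difference of -1.88. The other Tspan2 probe sets differed by -0.64 and -0.70. Among 12 receptors and junctional partners of Cd99 and Cd24a (median 0.03), the adhesion gene L1cam differed by 0.43, the kinase gene Fyn by -0.74 and the junctional gene Jam2 by -0.39, with limma adjusted p of 0.144, 0.147 and 0.173. The probe sets of Jam2 went both ways, from -0.39 to 0.52.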

How the data were processed

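Tumours were snap-frozen, and Trizol-extracted total RNA was biotin-labelled for Affymetrix arrays, per the labels' protocols. The authors deposited log2 values for 22690 probe sets on 6 arrays, a scale taken from their range (3.65 to 14.73). The submitters' processing notes name MAS5 as well as RMA, without saying which made this table. The small number of arrays, 3 in each cross, limits precision. Replicate numbers only name the samples.

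After 64 control probe sets were left out, 22626 were fitted with limma (version 3.58.1, under R 4.3.3), using eBayes, two-sided p-values and the Benjamini-Hochberg adjustment. Symbols came from the platform annotation, and 20380 probe sets had 1 symbol. The members and gene lists were chosen with earlier results of these data known. The genes named were all members, the 3 genes of each related list with the smallest p where none passed, and the 3 probe sets most correlated with Muc1 and with Cd99 (Pearson). Krt8, Elf5, Esr1, Spdef and Foxa1 (a check of the tissue), Acta2 and Krt5 of the basal list and the called interferon genes fall outside this rule. They were chosen after their values were seen. On simulated data the fit recovered 42% of shifts of 1 log2 unit and 92% of 2 among 22626 probe sets. Figures were drawn with matplotlib 3.10.9. The alternatives left out arrays, used a threshold of 0.10, weighted the arrays, took a trended robust prior, averaged each gene's probe sets, kept brighter probe sets only, or rescaled by quantiles or medians.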

Additional observations from a re-analysis of the deposited data

How the results depend on the processing

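Over all probe sets 22 passed, against 33 after median centring, 36 after quantile normalization, 32 with a trended and robust prior, 102 among probe sets brighter than the median, 810 at an adjusted p of 0.10 and 1 with a mean per gene. Leaving out 1 array gave between 1 and 263, and leaving out AKR replicate 2 and DBA replicate 1 together, a setting chosen after seeing the data, gave 657 (128 higher in AKR and 529 in DBA F1 tumours). Array weights gave 9969, but their calculation did not reach its tolerance and put a weight of 38.2 on AKR replicate 1. Of the calls, 8 were higher in AKR and 14 in DBA F1 tumours as deposited, and 19 and 7 when DBA replicate 2 was left out. The median difference of all probe sets was 0.05 as deposited and -0.14 among the brighter ones. Member probe sets that passed numbered 1 as deposited, after either rescaling and with the other prior, 3 among brighter probe sets, 4 at an adjusted p of 0.10, 9 with array weights and 0 with a mean per gene. They numbered between 0 and 3 without 1 array and 3 without AKR replicate 2 and DBA replicate 1, which were probe sets of Cd99, Muc1 and Muc20. Related genes that passed numbered 0 as deposited, 1 among brighter probe sets, 3 at an adjusted p of 0.10, 56 with array weights, between 0 and 2 without 1 array and 7 without both arrays. Of all fitted probe sets 0.0972% passed as deposited, 0.902% among the 11313 brighter ones and 44.1% with array weights. That share was 2.9% without both arrays, and 0.00807% of 12393 genes with a mean per gene. The cause of the changes in these counts was not tested. Of the 230 recomputed member differences 13 moved by more than the SD within crosses and 5, all of the called Cd99 probe set, kept their direction without passing. Of 287 recomputed differences of the named related genes 29 came to pass. Most of these were with the array weights, whose calculation did not reach its tolerance, and some only at the threshold of 0.10. The sign turned in 1, that of Jam2 with a mean per gene (0.02). Low values may lie at background, since no detection calls were used. No paired analysis was possible because the labels give the crosses no shared replicate numbers.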
